A study of Mus musculus with 18 samples.

Results

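Distal colon of Il10 knockout mice (Il10KO) on the BALB/c background was compared between week 14 and week 12 of life by sequencing of polyadenylated RNA. The comparison takes 6 of the 18 libraries of a series that followed colitis with age: 3 at week 14 and 3 at week 12, chosen by genotype and age in the labels. All 6 mice carry the same Il10 knockout, so the contrast is one of age within a single genotype. Each mouse gave 1 biopsy of distal colon at 1 age, and the mice of the 2 ages are different animals. The series has wild-type mice at week 6 only, so disease and growth over these 2 weeks cannot be told apart. Each mouse is labelled with its cage, with the RIN of its library, a number for the integrity of the RNA, and with lipocalin in ng/g. Lipocalin marks gut inflammation, and the labels do not say in what material it was measured. Values are given in the order of replicates 1, 2 and 3 within an age.

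Interleukin 10 is a cytokine through which T cells and macrophages restrain the response to gut bacteria. Without it, mice develop chronic colitis that is driven by macrophage-derived IL-12 and IL-23 and by T cells that make interferon-gamma and IL-17. Inflamed colon typically takes up neutrophils, replaces absorptive colonocytes by proliferating and wound-associated epithelium, and remodels its stroma. Because a biopsy mixes epithelium, immune cells and the muscle wall, fewer cells of a type and less RNA per cell cannot be told apart in any value given here.

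Il10 was checked first. Its single quantified transcript had 0 estimated counts in all 3 week 14 libraries and in all 3 week 12 libraries. The 3 wild-type libraries of the series had only 1, 0 and 3 counts, so this gene hardly tests the genotype labels. The tissue label was met in every library: Epcam, a surface protein of epithelium, was at 1756, 2093 and 2749 CPM at week 14, against 2017, 2074 and 1986 CPM at week 12. The intestinal transcription factor Cdx2 was at 60.9, 20.3 and 35.2 CPM at week 14, against 23.1, 32.0 and 73.6 CPM at week 12. CPM are counts scaled to a common effective library size.

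The 3 week 14 libraries did not form 1 group. RIN was 9, 6.5 and 5.8 at week 14, against 8.9, 8.6 and 8.8 at week 12. Library totals were 34306973, 27565728 and 28305260 estimated counts at week 14, against 35497101, 27048118 and 29677803 at week 12. Over all genes tested, the log2 CPM of W14 replicate 1 correlated with those of W14 replicates 2 and 3 at r = 0.796 and 0.827, while replicates 2 and 3 correlated with each other at 0.961. W14 replicate 1 correlated with the 3 week 12 libraries at 0.947, 0.936 and 0.962, and with the Il10KO week 6 libraries at 0.981. Whether this library is from the mouse its label names was not tested, and each week 14 value of replicate 1, and each count that includes it, rests on that label. These are correlations across genes, which are not independent replicates. The neutrophil alarmins S100a8 and S100a9 took 6.12e-05%, 0.876% and 0.666% of all counts at week 14, against 0.00336%, 0.00185% and 0.000778% at week 12. In 5253 genes (32.2%) replicates 2 and 3 both lay above all of week 12, and in 6162 (37.8%) both lay below. Each result below is therefore given for each week 14 library, and counts are given with and without W14 replicate 1. Leaving it out leaves the libraries with RIN under 7 as the whole of week 14, so that age and RNA integrity cannot be told apart in that comparison.

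With all 3 libraries on each side, 1 of 16300 genes differed. No gene passed higher, and 2610005L07Rik passed lower, which is 0.00613% of the genes tested (edgeR quasi-likelihood F-test, Benjamini-Hochberg adjusted over all genes, threshold 0.05). At an unadjusted p under 0.05, 2825 genes stood out, 2093 higher (12.8% of genes) and 732 lower (4.49%). DESeq2 called 206 genes higher (1.26%) and 103 lower (0.631%), and limma on log2 TPM called none. Leaving out W14 replicate 1 gave 3613 genes higher (22.1%) and 4094 lower (25.1%). Leaving out any other single library of the 6 gave 0 genes in either direction. Of the 309 genes that DESeq2 called with all libraries, 304 also passed in edgeR without W14 replicate 1. Voom with a weight per group gave week 14 a weight of 0.177, against 1.72 for week 12, where a lower weight means more spread, and called no gene (361 at an unadjusted p under 0.05).

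Part of the split between the week 14 libraries followed transcript length. Genes were divided into 5 equal bins by the length of their transcripts, weighted by abundance. In the bin of shortest transcripts, the median log2 difference from the week 12 mean was -0.65, 1.14 and 0.92 in W14 replicates 1, 2 and 3, while the week 12 libraries themselves lay at 0.16, 0.08 and -0.23. In the bin of longest transcripts the medians were 0.52, -1.06 and -0.91 at week 14 and -0.12, -0.04 and 0.17 at week 12. Short genes were thus high and long genes low in the W14 libraries of RIN 6.5 and 5.8, and the order was turned round in W14 replicate 1, whose RIN was 9. Removing each library's trend with length by an offset still gave 3203 genes higher (19.9%) and 2497 lower (15.5%) without W14 replicate 1, and 4195 genes passed with the same sign with and without the offset. With all 6 libraries, the offset left 0 genes higher (0%) and 1 lower (0.00623%), again 2610005L07Rik. Whether RNA integrity produced the trend was not tested.

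**Figure D1:**
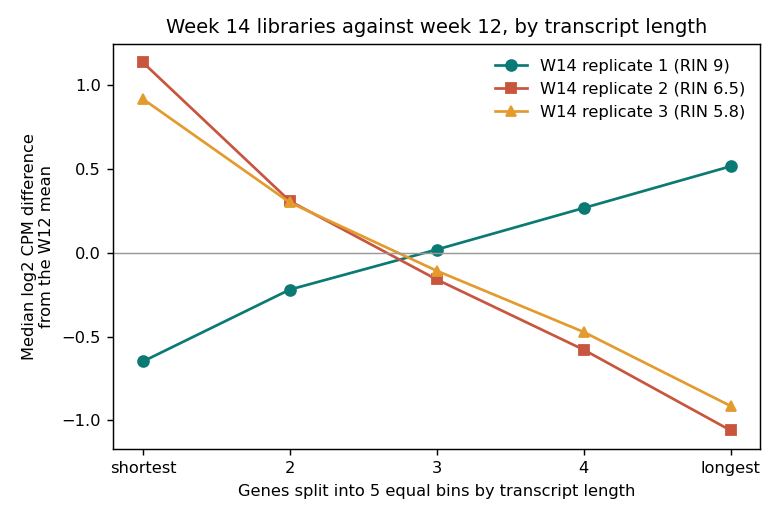
Median difference in log2 CPM of each week 14 library from the mean of the 3 week 12 libraries (y axis), over 5 equal bins of genes from the shortest to the longest transcripts (x axis), 1 line for each library. Replicates 2 and 3 fall from 1.14 and 0.92 to -1.06 and -0.91 along the axis, and replicate 1 climbs from -0.65 to 0.52.

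Cage is the one batch in the labels. Week 14 replicates 1, 2 and 3 came from cages A, C and E, and week 12 replicates from cages A, B and E. Cages A and E each held 1 mouse of either age, whereas cages B and C held 1 age of the pair only. The difference within cage A is that of W14 replicate 1 from W12 replicate 1, and the difference within cage E that of W14 replicate 3 from W12 replicate 3. The 2 cages gave opposite signs in the medians of the neutrophil, chemokine, cytokine and antimicrobial gene lists, and their values stand beside the groups below.

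2610005L07Rik, annotated in GENCODE as a transcribed unprocessed pseudogene at chr8:20385782-20424814 on the minus strand (GRCm38), had 8.98, 8.61 and 6.65 CPM at week 14, against 20.8, 22.4 and 19.4 CPM at week 12. All 3 week 14 libraries lay below all 3 week 12 libraries, with a log2 fold change of -1.37 ± 0.19 (SE, n = 3 each) and an edgeR adjusted p of 0.0472. The difference was -1.21 within cage A and -1.53 within cage E. Its level at weeks 6, 8 and 10 of the knockout ran from 10.3 to 14.6 CPM, so that all week 12 libraries lay above, and all week 14 libraries below, every library of these ages. Over the 22 alternative analyses the adjusted p ran from 4.86e-11 to 0.976, and 7 of them passed the threshold, all with a negative fold change. A pseudogene can share reads with its parent gene, and the counting may divide them, so its value is uncertain. The SE here and below was derived from the test and uses the spread pooled over the 6 groups of the series.

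Several genes linked to RNA processing were among those of smallest p below week 12, beside genes of other functions. Over all genes tested, 886 (5.44%) had their 3 week 14 libraries below the 3 of week 12, and 543 (3.33%) had them above. With the length trend removed these were 971 (6.04%) and 900 (5.6%). Pnisr, a serine- and arginine-rich protein linked to splicing, had 19.3, 16.5 and 14.6 CPM at week 14, against 41.9, 55.7 and 42.4 CPM at week 12, a log2 difference of -1.47 ± 0.22 with an edgeR adjusted p of 0.0605. Leng8, a protein linked to RNA processing, had 24.3, 26.5 and 18.9 CPM at week 14, against 61.4, 75.4 and 55.6 CPM at week 12 (log2 -1.47 ± 0.24, edgeR adjusted p = 0.0636). Mdm4, an inhibitor of p53 whose splicing is regulated, had 28.8, 22.7 and 22.8 CPM at week 14, against 44.4, 58.7 and 57.4 CPM at week 12 (log2 -1.11 ± 0.18, edgeR adjusted p = 0.0636). None of the 3 passed, though none of their libraries overlapped between the ages. Snrnp70, the U1 snRNP subunit that helps define 5' splice sites, had 37.4, 22.3 and 21.7 CPM at week 14, against 73.8, 65.9 and 60.4 CPM at week 12. Nktr, a cyclophilin with a serine- and arginine-rich tail, had 33.6, 18.5 and 14.8 CPM at week 14, against 42.1, 57.00 and 52.9 CPM at week 12. Levels of Pnisr in knockout mice of weeks 6 to 10 ran from 15.6 to 34.8 CPM and those of Snrnp70 from 36.3 to 71.98 CPM, so that for both genes the 3 week 12 libraries included the highest levels of these ages.

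A list of 37 splicing and nuclear speckle genes was made after these genes had been seen and is therefore no test of them. It had 11 members with all week 14 libraries below week 12 and 0 above, beside 5.44% and 3.33% of all genes. Its median log2 difference from week 12 was -0.30, -0.73 and -0.60 in the 3 week 14 libraries, which makes it one of the few lists on the same side in each, and -0.39, -0.29 and -0.28 with the length trend removed. The median of all genes was 0.01, -0.12 and -0.09. The 11 members below week 12 were Srsf1, Clk2, Luc7l2, Luc7l3, Pnn, Ddx39b, Snrnp70, Nktr, Pnisr, Leng8 and Clasrp.

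The transcript tables showed which transcripts carried these values. Retained-intron transcripts of Snrnp70 had 3.67, 0.968 and 1.18 TPM at week 14, against 13.9, 16.05 and 12.8 TPM at week 12. Its protein-coding transcripts had 31.6, 2.75 and 4.45 TPM at week 14, against 23.2, 19.4 and 25.2 TPM at week 12. In W14 replicate 1 the coding transcripts thus exceeded every week 12 library while the retained-intron transcripts lay below every one. TPM, the unit of these tables, is scaled by transcript length. On log2(TPM + 1) the median log2 fold change of all genes was -0.37, with 17.6% of genes positive, against 0.04 with counts. Falls in TPM therefore include a shift that most genes share. Retained-intron transcripts of Nktr had 4.65, 0.372 and 0.711 TPM at week 14, against 6.71, 7.13 and 7.89 TPM at week 12, and its protein-coding transcripts 6.53, 0.881 and 0.8602 TPM at week 14, against 4.54, 6.33 and 7.202 TPM at week 12. For Pnisr, whose annotation here holds no retained-intron class, both the protein-coding transcripts, with 5.72, 1.21 and 1.47 TPM at week 14 against 8.41, 11.2 and 10.4 TPM at week 12, and the processed transcripts were below week 12 in each library. Over all genes, retained-intron transcripts made up 1.93, 2.01 and 2.15% of TPM at week 14, against 2.13, 2.43 and 2.43% at week 12. That difference of -0.2998 percentage points had an exact two-sided permutation p of 0.2, where 3 against 3 cannot go below 0.1.

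Other genes of at least 2 CPM that lay below week 12 in each library, with none passing, came from several functions. Xrcc3, a protein of homologous recombination, had 2.58, 1.87 and 2.805 CPM at week 14, against 7.19, 6.54 and 6.44 CPM at week 12 (log2 -1.47 ± 0.26). Zfp217, a zinc-finger transcriptional repressor, had 22.05, 9.73 and 12.5 CPM at week 14, against 32.8, 48.6 and 38.6 CPM at week 12 (log2 -1.44 ± 0.29). Perm1, a muscle regulator of mitochondrial genes, had 0.896, 0.312 and 0.675 CPM at week 14, against 3.38, 3.85 and 2.04 CPM at week 12 (log2 -2.26 ± 0.43). The others, Tmem72, Plppr3, Hoxa6 and Aoc2, had log2 fold changes of -1.89, -1.87, -2.79 and -2.22. Their edgeR adjusted p-values, with those of Xrcc3, Zfp217, Perm1, Snrnp70 and Nktr, ran from 0.111 to 0.242.

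**Figure D2:**
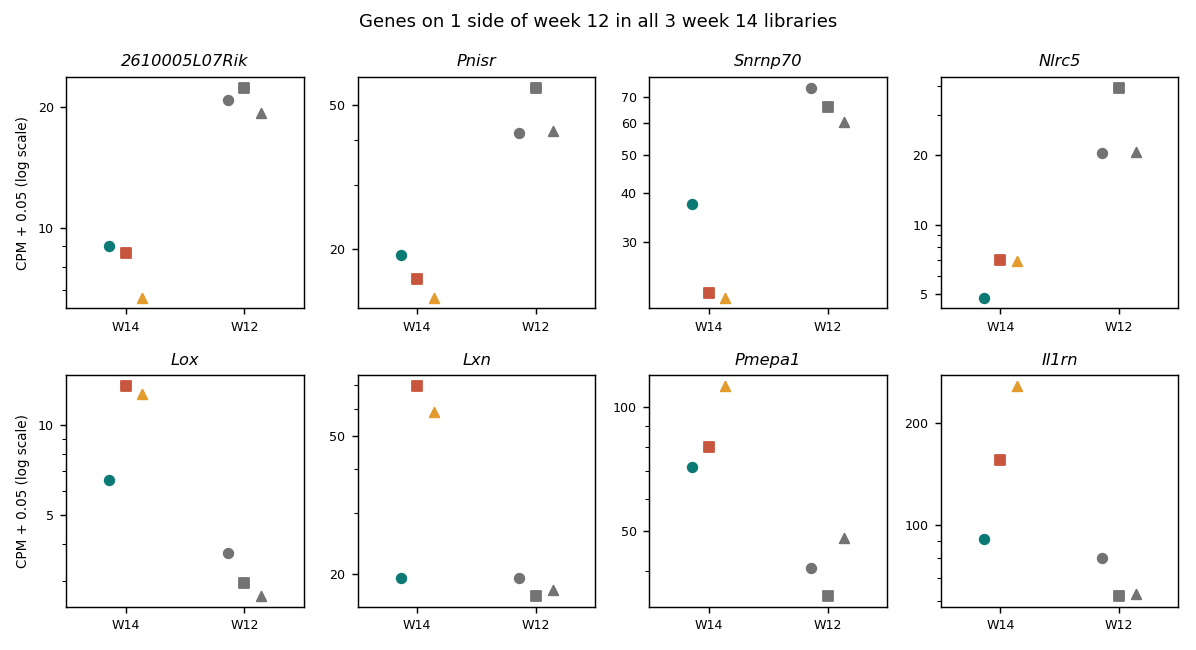
CPM plus 0.05 on a log scale of 8 genes whose 3 week 14 libraries (coloured, left) all lay on 1 side of the 3 week 12 libraries (grey, right); circles, squares and triangles are replicates 1, 2 and 3. 2610005L07Rik, Pnisr, Snrnp70 and Nlrc5 lie below week 12 and Lox, Lxn, Pmepa1 and Il1rn above it, with Lxn of replicate 1 level with the highest week 12 library.

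The genes of smallest p among those above week 12 in all 3 week 14 libraries came from differing functions, and none passed. Lox, the lysyl oxidase that crosslinks collagen, had 6.51, 13.5 and 12.6 CPM at week 14, against 3.67, 2.91 and 2.61 CPM at week 12 (log2 1.82 ± 0.45). Pmepa1, a TGF-beta-induced inhibitor of SMAD signalling, had 71.7, 79.8 and 113 CPM at week 14, against 40.8, 34.7 and 48.2 CPM at week 12 (log2 1.09 ± 0.27). Il1rn, the antagonist of the IL-1 receptor, had 91.2, 155 and 256 CPM at week 14, against 80.1, 61.8 and 62.96 CPM at week 12 (log2 1.29 ± 0.37). The groups were well apart in Lox and Pmepa1, where the lowest week 14 library was 1.77 and 1.49 times the highest week 12 library. Lxn, a carboxypeptidase inhibitor, had 19.4, 69.6 and 58.7 CPM at week 14, against 19.4, 17.2 and 17.9 CPM at week 12 (log2 1.44 ± 0.36), so that replicate 1 was level with the highest week 12 library. Gata3, the regulator of type 2 T helper and innate lymphoid cells, had 1.897, 4.37 and 5.298 CPM at week 14, against 1.15, 1.24 and 1.47 CPM at week 12 (log2 1.58 ± 0.47). Dcstamp, a fusion protein of osteoclasts and myeloid cells, had 0.237, 4.49 and 1.77 CPM at week 14, against 0.115, 0.182 and 0.0637 CPM at week 12 (log2 4.12 ± 1.04), with replicate 1 only slightly above week 12. The mitochondrial mt-Nd3, a subunit of complex I, had 252, 682 and 519 CPM at week 14, against 159, 158 and 167 CPM at week 12 (log2 1.59 ± 0.36). Smim19 and Sdr16c6 had log2 fold changes of 0.82 and 1.62. The edgeR adjusted p was 0.242 for each of these 9 genes, and all 9 passed once W14 replicate 1 was left out. With the length trend removed as well, mt-Nd3 and Smim19 no longer passed.

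Of all gene lists, the neutrophil-attracting chemokines had the widest gap between week 14 libraries by their medians. In this list Cxcl1, Cxcl2, Cxcl3 and Cxcl5 are CXC chemokines that bind CXCR2. Epithelium, stroma and myeloid cells make them under IL-1, IL-17 and NF-kB signalling. The list also holds Csf3 and Pf4, which are not ligands of CXCR2. Cxcl1, Cxcl2 and Cxcl3 lie near each other on chromosome 5, and the bases before their start sites are shown because in each of the 3 genes W14 replicates 2 and 3 lay above all of week 12 and replicate 1 below it. RefSeq gives these 150 bases of the plus strand upstream of each start, on GRCm38.p6 at chr5:90891095-90891244 for Cxcl1, chr5:90903749-90903898 for Cxcl2 and chr5:90785951-90786100 for Cxcl3. Capitals mark the longest run of bases that the 3 windows share, GGGAATTTCCC, which holds a form of the motif bound by NF-kB.
Cxcl1: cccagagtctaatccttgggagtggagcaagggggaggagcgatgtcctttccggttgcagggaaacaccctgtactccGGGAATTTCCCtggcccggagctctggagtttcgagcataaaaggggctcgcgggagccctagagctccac
Cxcl2: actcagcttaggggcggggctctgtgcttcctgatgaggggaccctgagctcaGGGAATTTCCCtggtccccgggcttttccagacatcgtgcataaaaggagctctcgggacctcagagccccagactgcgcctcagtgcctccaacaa
Cxcl3: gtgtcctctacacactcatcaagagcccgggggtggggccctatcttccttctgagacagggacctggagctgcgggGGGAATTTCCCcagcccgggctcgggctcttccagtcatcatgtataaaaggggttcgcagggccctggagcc
The shared run started 71, 97 and 73 bases before the starts of Cxcl1, Cxcl2 and Cxcl3. Searched on both strands, it occurred in 14 of 32544 unique windows of 250 upstream bases, or 0.0430%. The letters describe the sequence only, and no factor binding was measured.

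The 4 chemokines of this family with the smallest p gave the same picture. Cxcl5 had 0.922, 1244 and 2011 CPM at week 14, against 7.91, 5.74 and 4.21 CPM at week 12. Cxcl3 had 0.0263, 71.4 and 87.4 CPM at week 14, against 0.315, 0.473 and 0.127 CPM at week 12. Cxcl1 had 0.2898, 151 and 165 CPM at week 14, against 3.75, 3.02 and 2.26 CPM at week 12. In each, replicates 2 and 3 lay far above week 12 and replicate 1 below all of it. Cxcl2 had 0, 33.7 and 59.2 CPM at week 14, against 0.831, 0.473 and 0.223 CPM at week 12; its 0 in replicate 1 allows up to 0.07903 CPM, counted as 3 reads. The log2 fold changes over all 3 libraries were 7.51 ± 2.01, 7.43 ± 1.95, 5.13 ± 1.29 and 5.90 ± 1.64 for Cxcl5, Cxcl3, Cxcl1 and Cxcl2, each with an edgeR adjusted p of 0.242. Of 6 listed genes tested, 6 had an unadjusted p under 0.05, beside 2825 of all 16300 genes, and 0 passed after adjustment. Without W14 replicate 1, 6 passed higher, beside 22.1% of all genes, and 5 when the length trend was removed as well, beside 19.9%. The list's median log2 difference was -2.23, 5.84 and 6.31 in the week 14 libraries, -2.53 within cage A and 6.92 within cage E.

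Neutrophil genes split the same libraries. S100a8 and S100a9, the subunits of calprotectin, had 0.158, 9273 and 5436 and 0.395, 5800.1 and 4352 CPM at week 14, against 14.3, 7.49 and 3.63 and 19.8, 10.7 and 3.73 CPM at week 12. Their log2 fold changes were 9.17 ± 2.45 and 8.21 ± 2.27, and 9.76 and 8.80 without W14 replicate 1, where both passed. Clec4d, a C-type lectin receptor of neutrophils and macrophages, had 0.369, 49.8 and 53.5 CPM at week 14, against 1.55, 1.600 and 0.8602 CPM at week 12. The stefin Stfa2l1 had 0, 30.6 and 22.5 CPM at week 14, against 0.286, 0.0364 and 0.0637 CPM at week 12. Among 19 neutrophil genes tested, 14 had an unadjusted p under 0.05, beside 2825 of all 16300 genes, and 0 passed after adjustment. Without W14 replicate 1, 15 passed higher and 0 lower, beside 22.1% and 25.1% of all genes. Removing the length trend again gave 15 and 0, beside 19.9% and 15.5%. The summed level of the list was 390.1, 15721 and 10534 CPM at week 14, against 392, 285 and 477 CPM at week 12. Camp, Ngp and Elane, granule genes of immature neutrophils, were not analysed here. The list's median difference was -1.89 within cage A and 4.57 within cage E.

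**Figure D3:**
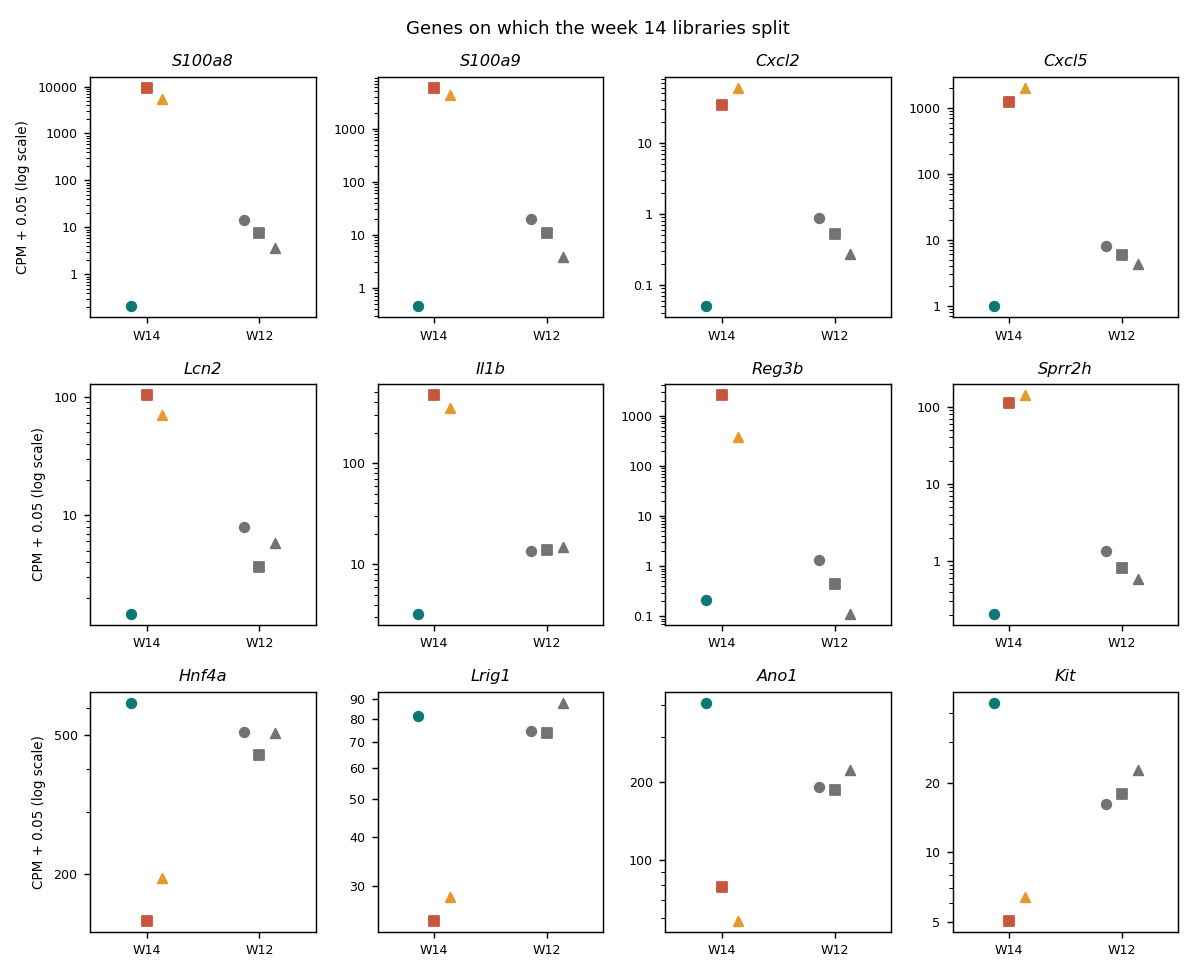
CPM plus 0.05 on a log scale of 12 genes in the 3 week 14 libraries (coloured, left) and the 3 week 12 libraries (grey, right); circles, squares and triangles are replicates 1, 2 and 3. In the upper 8 inflammatory genes W14 replicates 2 and 3 lie above week 12, and in Hnf4a, Lrig1, Ano1 and Kit they lie below it, away from replicate 1.

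Monocyte chemokines and inflammatory cytokines divided the libraries in the same way. Ccl7, a ligand of CCR2, had 0.843, 943 and 495 CPM at week 14, against 31.7, 16.3 and 5.29 CPM at week 12. Il1b had 3.21, 468 and 354 CPM at week 14, against 13.5, 13.9 and 14.7 CPM at week 12, and Il1a had 0.659, 25.3 and 27.7 CPM at week 14, against 1.12, 1.35 and 1.12 CPM at week 12. Within week 12 the 3 libraries hardly differed in Il1b, while its highest week 14 library was 146 times its lowest. Il6 had 0.0263, 14.9 and 7.58 CPM at week 14, against 0.201, 0.436 and 0.319 CPM at week 12. The CC chemokines Ccl2 and Ccl4 had 0.632, 70.1 and 48.1 and 0.158, 11.5 and 6.18 CPM at week 14, against 7.45, 5.49 and 4.17 and 1.003, 0.909 and 0.892 CPM at week 12. Of 24 CXCR3 and CC chemokines tested, 14 passed higher and 1 lower without W14 replicate 1, or 8 and 1 with the length trend removed. Of 15 inflammatory cytokines, 8 passed higher and 0 lower without that library. The shares of all genes there were 22.1% higher and 25.1% lower, or 19.9% and 15.5% with the length trend removed. Both lists had a median below week 12 in replicate 1 (-1.21 and -0.61) and above it in replicates 2 and 3 (1.84 and 1.38 for the chemokines, 1.49 and 1.69 for the cytokines). Their medians were -1.14 and -0.35 within cage A and 1.92 and 1.95 within cage E. Il1rn, described above, differed from the other IL-1 genes in that replicate 1 also lay above week 12.

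T helper cytokines of the IL-17 and interferon-gamma kind were high in W14 replicates 2 and 3. Il17a had 0.07903, 43.1 and 13.9 CPM at week 14, against 0.172, 0.182 and 0.223 CPM at week 12, and Il17f had 0.132, 17.5 and 12.2 CPM at week 14, against 0.487, 0.582 and 0.382 CPM at week 12. Ifng had 0.105, 12.3 and 9.97 CPM at week 14, against 0.859, 1.71 and 0.3505 CPM at week 12. All 3 cytokines were lowest in W14 replicate 1 among the 6 libraries and passed higher once it was left out, with log2 fold changes of 7.18, 4.93 and 3.52. Of the 13 T helper genes tested, 5 passed higher and 1 lower in that comparison, beside 22.1% and 25.1% of all genes. Tac1, the precursor of substance P, which the wall's neurons make, had 15.5, 679 and 683 CPM at week 14, against 32.97, 19.8 and 26.3 CPM at week 12 and a log2 fold change of 4.12 ± 0.98. It was among the genes of smallest p with a positive fold change, together with Myl1, a myosin light chain with 0.501, 3.93 and 3.74 CPM at week 14, against 0.573, 0.545 and 0.5098 CPM at week 12, and the Golgi calcium pump Atp2c2 with 108, 294 and 250.4 CPM at week 14, against 109, 94.2 and 92.9 CPM at week 12.

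Antimicrobial and epithelial defence genes were high in the same libraries. Reg3b, a secreted C-type lectin that binds bacteria, had 0.158, 2552 and 378 CPM at week 14, against 1.29, 0.3999 and 0.0637 CPM at week 12, and its relative Reg3g had 0.501, 1361 and 271 CPM at week 14, against 6.904, 4.04 and 2.55 CPM at week 12. Slpi, an epithelial protease inhibitor, had 23.4, 1964 and 2961 CPM at week 14, against 191, 136 and 87.2 CPM at week 12. For Reg3b the 2 high libraries differed 6.76-fold from each other, more than for Slpi, where they differed 1.51-fold. Reg4 had 382, 1097 and 994 CPM at week 14, against 318, 384 and 399.6 CPM at week 12, and its replicate 1 fell within the range of week 12. Of 18 antimicrobial and nitric oxide genes tested, 10 passed higher and 2 lower without W14 replicate 1, beside 22.1% and 25.1% of all genes. Removing the length trend gave 6 and 1, beside 19.9% and 15.5%. The list's median difference was -2.17 within cage A and 2.54 within cage E.

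Cornified envelope and wound-associated epithelial genes were high in the same libraries. Sprr2 genes encode small proline-rich proteins of the cornified envelope that gut epithelium also makes on injury. Sprr2h had 0.158, 111 and 140.4 CPM at week 14, against 1.32, 0.763 and 0.542 CPM at week 12, and Sprr2b had 0.158, 39.5 and 77.7 CPM at week 14, against 0.745, 0.218 and 0.223 CPM at week 12. Sprr2d had 0.0527, 14.6 and 39.4 CPM at week 14, against 0, 0 and 0 CPM at week 12. With no read at week 12, its mean at week 14 was at least 563-fold higher than 3 counts over the 3 week 12 libraries. The Sprr2 genes are near-identical copies between which reads can be divided, so the values of single members are uncertain. The squamous keratin Krt6a was at 0, 1.93 and 1.45 CPM at week 14, against 0.0859, 0 and 0 CPM at week 12. Trp63, Krt4, Krt1 and Ivl, which mark squamous epithelium, were not analysed here.

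Among regenerative epithelium genes, Anxa1, a phospholipid-binding protein of wound repair, had 179, 1576 and 1786 CPM at week 14, against 257, 290.3 and 244 CPM at week 12. Plaur, the urokinase receptor, had 3.45, 55.5 and 107 CPM at week 14, against 9.88, 4.91 and 6.02 CPM at week 12, and the EGF receptor ligand Areg had 17.6, 73.4 and 147 CPM at week 14, against 22.3, 18.6 and 25.9 CPM at week 12. Of 15 genes tested, 8 passed higher and 0 lower without W14 replicate 1, beside 22.1% and 25.1% of all genes. The counts were the same with the length trend removed, beside 19.9% and 15.5%. The list median was -0.32, 1.42 and 1.50 in the 3 week 14 libraries.

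By list median, interferon-gamma inducible genes were also lowest in W14 replicate 1, but replicates 2 and 3 did not lie above week 12. Nlrc5, the transactivator of MHC class I genes, had 4.74, 6.93 and 6.86 CPM at week 14, against 20.4, 39.4 and 20.6 CPM at week 12 (log2 -2.12 ± 0.55). The guanylate-binding proteins Gbp10 and Gbp9 had 2.16, 0.624 and 2.75 and 10.4, 14.5 and 8.36 CPM at week 14, against 8.59, 23.01 and 5.799 and 16.1, 31.3 and 17.2 CPM at week 12; reads can be divided between Gbp genes of near-identical sequence. Irf8, an interferon-induced transcription factor of myeloid and B cells, had 71.8, 103 and 96.9 CPM at week 14, against 154, 187 and 122 CPM at week 12. In each of these 4 genes the week 14 libraries lay below every week 12 library, and none passed (edgeR adjusted p = 0.242 for Nlrc5, Gbp10 and Gbp9 and 0.334 for Irf8). Of 24 interferon-gamma inducible genes tested, 7 lay below week 12 in all 3 libraries and 0 above, beside 5.44% and 3.33% of all genes. The list median was -2.24, -0.23 and -0.17 in the week 14 libraries, against 0.01, -0.12 and -0.09 over all genes. Its distance from week 12 was thus wide in replicate 1. In replicates 2 and 3 it was near that of all genes, and Ifng itself was above week 12 in both. Without W14 replicate 1, 1 member passed higher and 2 lower, beside 22.1% and 25.1% of all genes. Removing the length trend gave 1 and 0, beside 19.9% and 15.5%. Within cage A the median was -2.03 and within cage E 0.52, so the cages differ in sign.

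The type I interferon-inducible antiviral genes had a like order of libraries. Rsad2, the antiviral enzyme viperin, had 4.98, 7.68 and 7.63 CPM at week 14, against 26.5, 45.3 and 17.1 CPM at week 12. Oas3, a sensor of double-stranded RNA, had 6.88, 5.62 and 9.401 CPM at week 14, against 29.3, 45.3 and 22.7 CPM at week 12, and Oasl2 had 20.5, 32.1 and 38.1 CPM at week 14, against 68.3, 97.03 and 45.4 CPM at week 12. These 3 of 22 genes lay below week 12 in every week 14 library, beside 5.44% of all genes, with edgeR adjusted p-values of 0.255, 0.244 and 0.391. The list median was -2.02, -0.19 and 0.12, with 1, 10 and 13 of the 22 genes above the week 12 mean. Without W14 replicate 1, 2 members passed higher and 0 lower, beside 22.1% and 25.1% of all genes. Removing the length trend gave 0 and 0, beside 19.9% and 15.5%. The list median was -2.05 within cage A and 1.11 within cage E, so the cages differ in sign here too. In MHC class II presentation, Ciita, the master regulator of the class II genes, had 23.97, 22.03 and 20.8 CPM at week 14, against 52.5, 96.8 and 63.8 CPM at week 12 (log2 -1.67 ± 0.51, edgeR adjusted p = 0.242). The class II chain H2-Ab1 had 236, 743 and 609 CPM at week 14, against 938, 1094 and 864 CPM at week 12, and H2-DMb2, which helps load peptides, had 13.4, 35.6 and 29.03 CPM at week 14, against 39.1, 55.5 and 48.97 CPM at week 12. With Cd74, 4 of the 11 class II genes lay below week 12 in all libraries, beside 5.44% of all genes. The list median was -1.57, 0.15 and -0.20, and -1.19, -0.69 and -0.92 with the length trend removed, where all 3 libraries were below week 12.

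**Figure D4:**
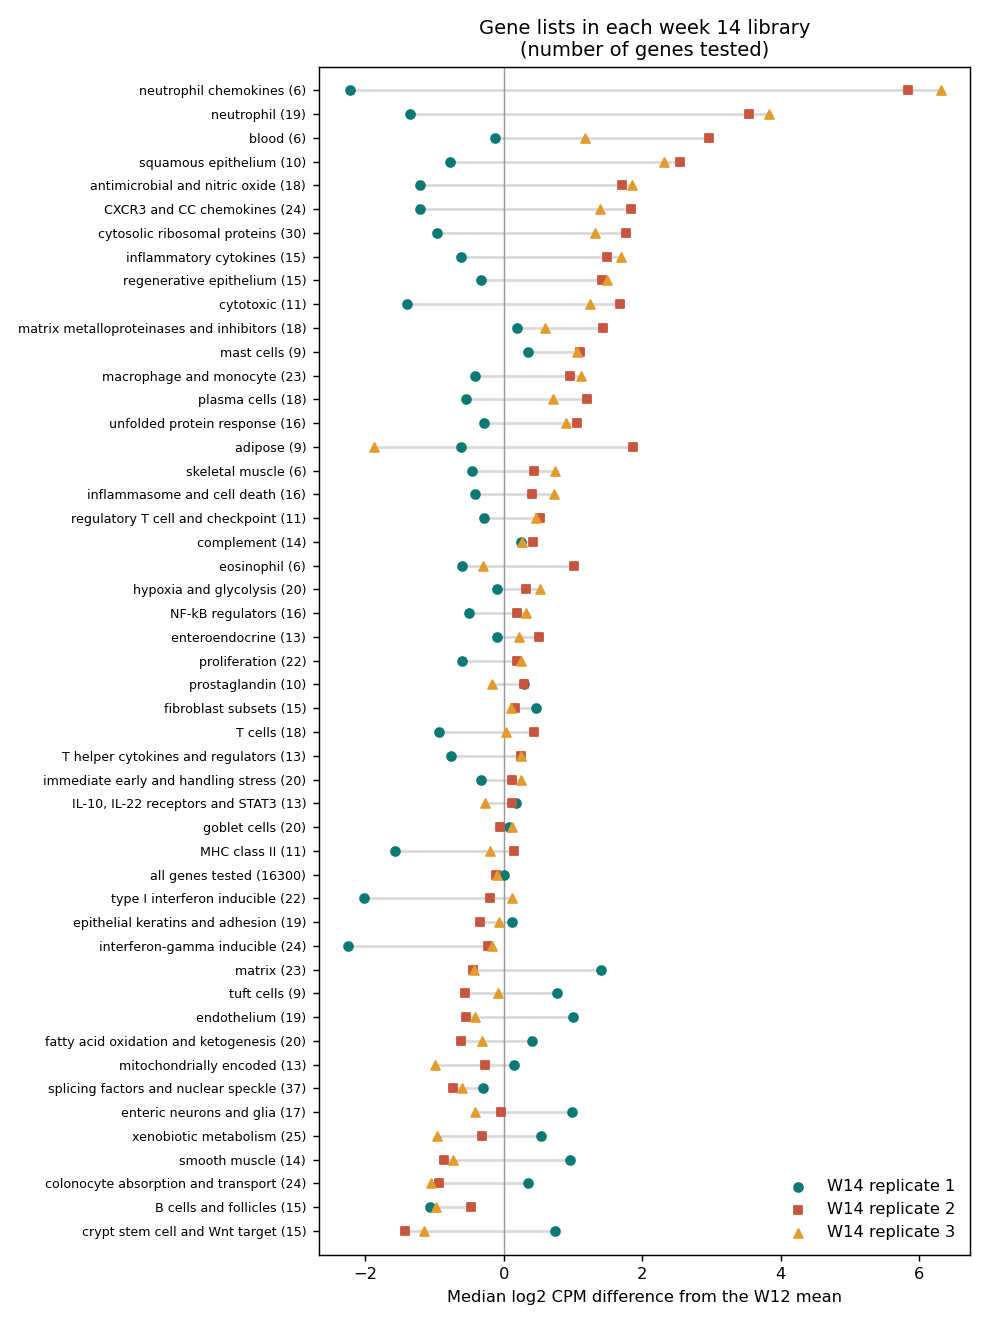
Median difference in log2 CPM from the mean of the 3 week 12 libraries (x axis) for each gene list with at least 5 tested genes (y axis, number tested in brackets), in W14 replicates 1, 2 and 3. Neutrophil chemokines run from -2.23 in replicate 1 to 6.31 in replicate 3, while interferon-gamma inducible genes and the splicing list, which was added after the values were seen, lie at or below 0 in all 3.

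Lymphocyte genes are read against the fit without W14 replicate 1, where 22.1% of all genes passed higher and 25.1% lower. Cd3d, a chain of the T cell receptor complex, had 2.27, 73.8 and 39.2 CPM at week 14, against 12.3, 16.1 and 9.91 CPM at week 12, and of 18 T cell genes tested 2 passed higher and 0 lower in that comparison. Gzma, a granzyme of cytotoxic cells, had 5.06, 189 and 150.3 CPM at week 14, against 40.5, 31.8 and 24.5 CPM at week 12, whereas the pore-forming Prf1 had 0.869, 0.624 and 0.467 CPM at week 14, against 1.49, 1.49 and 2.198 CPM at week 12 and lay below week 12 in each week 14 library. Both belong to the cytotoxic list, where 4 of 11 passed higher and 1 lower without replicate 1, and 0 and 1 with the length trend removed. B cell and follicle genes were low in all 3 week 14 libraries by their list median, -1.06, -0.48 and -0.98. Cr2, the complement receptor of follicular B cells and follicular dendritic cells, had 10.8, 6.74 and 5.61 CPM at week 14, against 8.79, 29.5 and 34.3 CPM at week 12. The follicle-homing receptor Cxcr5 had 7.798, 4.18 and 2.86 CPM at week 14, against 6.302, 17.9 and 22.1 CPM at week 12, and Pax5, which fixes B cell identity, had 6.22, 1.68 and 1.35 CPM at week 14, against 3.695, 7.53 and 18.1 CPM at week 12. Week 12 replicate 1 was low in these genes too, so the ages overlapped, and 3 of 15 passed lower without W14 replicate 1, or 1 with the length trend removed. Within cage A the list median was -0.07 and within cage E -1.49.

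Some plasma cell transcripts were abundant in W14 replicates 2 and 3. Jchain, which joins IgA dimers, had 764, 8806 and 6825 CPM at week 14, against 745, 1525 and 1780.3 CPM at week 12. The kappa constant region Igkc had 1190.3, 6551 and 4907 CPM at week 14, against 607, 1067 and 2102 CPM at week 12, and Xbp1, the secretory regulator, had 232, 763 and 791 CPM at week 14, against 281, 272 and 289 CPM at week 12. Each passed higher without W14 replicate 1, with log2 fold changes of 2.53, 2.19 and 1.47. Of 18 listed genes, 4 passed higher and 0 lower there, a share close to the 22.1% of all genes that passed higher. With the length trend removed as well, Igkc no longer passed.

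Macrophage genes included some that were high in all 3 libraries. Mrc1, the mannose receptor of resident macrophages, had 26.03, 24.03 and 28.98 CPM at week 14, against 12.3, 12.1 and 13.8 CPM at week 12 (log2 1.05 ± 0.35, edgeR adjusted p = 0.242). It was even across the 3 week 14 libraries, unlike the 3 activation genes that follow. Arg1, an arginase of alternatively activated and suppressive myeloid cells, had 0.184, 26.2 and 31.7 CPM at week 14, against 0.945, 0.618 and 0.573 CPM at week 12. The lipid receptor Trem2 had 1.48, 7.93 and 8.26 CPM at week 14, against 1.89, 1.67 and 1.24 CPM at week 12, and the activating Fc receptor Fcgr4 had 3.85, 37.2 and 36.04 CPM at week 14, against 5.96, 9.56 and 5.73 CPM at week 12. Of 23 genes tested, 12 passed higher and 0 lower without W14 replicate 1, beside 22.1% and 25.1% of all genes. Removing the length trend gave 10 and 0, beside 19.9% and 15.5%. Mast cell genes were present at low levels: Cpa3 had 2.03, 2.75 and 2.65 CPM at week 14, against 1.203, 0.982 and 1.62 CPM at week 12, and Mcpt2, a protease of mucosal mast cells, had 1.66, 13.3 and 42.02 CPM at week 14, against 6.85, 4.76 and 3.44 CPM at week 12.

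Some matrix-degrading enzymes were high in W14 replicates 2 and 3. Mmp10, a stromelysin, had 0.896, 25.96 and 14.5 CPM at week 14, against 1.003, 1.09 and 0.637 CPM at week 12. Mmp7, matrilysin of injured epithelium, had 0.07903, 27.96 and 25.7 CPM at week 14, against 0.688, 1.05 and 0.287 CPM at week 12, and the macrophage elastase Mmp12 had 2.95, 39.6 and 16.8 CPM at week 14, against 3.84, 3.02 and 2.42 CPM at week 12. Their inhibitor Timp1 had 1.92, 18.5 and 20.5 CPM at week 14, against 4.33, 2.47 and 1.27 CPM at week 12. Of 18 genes tested, 9 passed higher and 1 lower without W14 replicate 1, beside 22.1% and 25.1% of all genes. The list as a whole did not split the libraries in this way. Its median was 0.20, 1.43 and 0.59 in the week 14 libraries. Its summed level was 594, 463 and 481 CPM at week 14, against 310, 259 and 311 CPM at week 12, and so was highest in replicate 1.

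Structural matrix genes had positive fold changes in 23 of 23 members with counts, but in only 6 of 23 on log2 TPM, where the median of all genes was -0.37. With counts, 8565 of 16300 genes tested were positive, the list's number was 23 with RLE size factors and 22 with library size only, and no member passed. Lum and Dcn, the collagen-binding proteoglycans lumican and decorin, had 93.6, 71.6 and 66.4 and 368, 643 and 376 CPM at week 14, against 39.6, 39.2 and 42.8 and 244, 225 and 230.0 CPM at week 12. Fbn1, the microfibril protein fibrillin, had 28.8, 13.5 and 16.6 CPM at week 14, against 13.2, 10.4 and 9.46 CPM at week 12. With Col3a1, Sparc and Lox, 6 of the 23 lay above week 12 in all 3 libraries, beside 3.33% of all genes. The list median of 1.41, -0.44 and -0.43 nevertheless placed replicate 1 above week 12 and the other two below it. With the length trend removed the medians were 0.95, 0.73 and 0.41. Without W14 replicate 1, 2 genes passed higher and 0 lower, below the 22.1% and 25.1% of all genes. Removing the length trend as well gave 5 and 0, beside 19.9% and 15.5%.

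By list median, vessel, muscle and nerve genes were high in W14 replicate 1. The nerve list, which holds Tac1, was by summed level instead highest in replicates 2 and 3. Its sums were 129, 752 and 771 CPM at week 14, against 98.2, 82.6 and 86.6 CPM at week 12. Emcn, a sialomucin of capillaries and veins, had 6.902, 9.92 and 5.66 CPM at week 14, against 3.44, 2.73 and 4.33 CPM at week 12, and the leukocyte rolling receptor Selp had 2.397, 3.24 and 3.74 CPM at week 14, against 1.89, 1.200 and 1.69 CPM at week 12; both lay above week 12 in all 3 libraries (log2 1.10 ± 0.35 and 0.97 ± 0.37, edgeR adjusted p = 0.242 and 0.242). Vwf, von Willebrand factor, had 21.3, 3.37 and 3.95 CPM at week 14, against 5.19, 4.33 and 5.38 CPM at week 12, and only replicate 1 was high. Acta2, smooth muscle actin, had 1539, 515 and 561 CPM at week 14, against 848, 516 and 717 CPM at week 12. The pacemaker cells of the muscle wall, the interstitial cells of Cajal, are marked by Ano1 and Kit. Ano1, their chloride channel, had 407, 78.5 and 58.2 CPM at week 14, against 192, 187 and 223 CPM at week 12, and Kit had 44.3, 4.99 and 6.34 CPM at week 14, against 16.2, 17.8 and 22.6 CPM at week 12, so that replicate 1 was above week 12 and the other two below in both. List medians were 0.99, -0.54 and -0.41 for endothelium, 0.95, -0.86 and -0.74 for smooth muscle, 0.99, -0.04 and -0.42 for enteric neurons and glia and 1.14, -1.62 and -1.66 for the 4 Cajal genes. The fold changes of Vwf, Acta2, Ano1 and Kit had opposite signs with and without 1 or more of the libraries.

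Several genes of absorptive epithelium were lower in W14 replicates 2 and 3 than at week 12. Hnf4a, the transcription factor of enterocyte identity, had 622, 146 and 194 CPM at week 14, against 512, 439.6 and 507 CPM at week 12. Vil1, villin of the brush border, had 385, 106 and 136 CPM at week 14, against 346, 341 and 370.1 CPM at week 12. Both passed lower without W14 replicate 1, with log2 fold changes of -1.51 and -1.54, whereas the epithelial marker Epcam did not pass (log2 0.26). Car4, a membrane carbonic anhydrase of surface colonocytes, had 882, 989 and 457 CPM at week 14, against 1418, 1238 and 1436 CPM at week 12. The water channel Aqp8 had 596, 245 and 129 CPM at week 14, against 891, 606 and 598 CPM at week 12. Car4 and Aqp8 lay below week 12 in all 3 libraries, Aqp8 narrowly so in replicate 1. Nlrp6, an epithelial inflammasome sensor, had 205, 44.5 and 54.8 CPM at week 14, against 343, 312 and 199 CPM at week 12, and the mitochondrial coactivator Ppargc1b had 14.2, 1.997 and 3.06 CPM at week 14, against 12.8, 13.1 and 11.6 CPM at week 12. The tight junction protein Cldn4 went the other way, with 40.02, 123 and 275 CPM at week 14, against 62.3, 52.02 and 45.3 CPM at week 12. Of 24 colonocyte transport genes tested, 2 passed higher and 12 lower without W14 replicate 1, beside 22.1% and 25.1% of all genes. Removing the length trend gave 3 and 11, beside 19.9% and 15.5%.

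Stem cell, goblet and proliferation genes differed by gene. Their counts without W14 replicate 1 are read beside 22.1% of all genes higher and 25.1% lower. With the length trend removed the shares of all genes were 19.9% and 15.5%. Lrig1, an EGF receptor inhibitor of crypt progenitors, had 81.1, 24.5 and 28.1 CPM at week 14, against 74.4, 73.7 and 87.97 CPM at week 12, and Rnf43, a Wnt receptor ligase, had 29.2, 8.36 and 7.43 CPM at week 14, against 21.8, 22.98 and 30.1 CPM at week 12. Of 15 stem cell and Wnt target genes, 1 passed higher and 8 lower without W14 replicate 1; the one higher was Olfm4, a glycoprotein of crypt cells and neutrophils, with 0.0263, 1.997 and 5.401 CPM at week 14, against 0.0286, 0.109 and 0.0956 CPM at week 12. Spink4 and Agr2, secretory products of goblet cells, had 128, 3492 and 2619 and 396, 6142 and 4786 CPM at week 14, against 522, 384 and 251 and 1005, 1206 and 769 CPM at week 12. The mucin Muc2 was at 93.7, 53.7 and 57.0 CPM at week 14, against 70.1, 68.2 and 88.0 CPM at week 12. Goblet genes gave 6 higher and 4 lower calls of 20 without replicate 1, close to the shares of all genes. They gave 4 and 1 with the length trend removed. Among 22 proliferation genes, Birc5, the mitotic protein survivin, had 18.6, 169 and 163 CPM at week 14, against 49.1, 53.5 and 39.4 CPM at week 12, while the mitotic transcription factor Foxm1 had 13.7, 5.93 and 5.19 CPM at week 14, against 16.1, 17.4 and 18.2 CPM at week 12 and the replication helicase subunit Mcm5 had 25.2, 21.2 and 25.6 CPM at week 14, against 36.9, 37.6 and 42.7 CPM at week 12. Foxm1, Mcm5 and Mcm6, 3 of the 22 genes, lay below week 12 in all 3 libraries, beside 5.44% of all genes. Proliferation genes gave 8 higher and 4 lower calls without W14 replicate 1. With the length trend removed they gave 2 and 1, below the shares of all genes.

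Among stress and feedback genes, single members were high in W14 replicates 2 and 3, while their lists had calls in both directions. Bnip3, a hypoxia-induced mitophagy receptor, had 34.7, 481 and 389.8 CPM at week 14, against 91.6, 75.9 and 59.4 CPM at week 12, and Egln3, an oxygen-sensing hydroxylase that hypoxia induces, had 151, 347 and 493 CPM at week 14, against 229, 119 and 201 CPM at week 12. In the unfolded protein response, Herpud1 had 124, 270.2 and 323 CPM at week 14, against 157, 102 and 117 CPM at week 12 and Dnajb9 had 68.3, 142 and 164 CPM at week 14, against 53.8, 62.2 and 74.1 CPM at week 12; 8 of 16 listed genes passed higher and 2 lower without W14 replicate 1. In the same fit the hypoxia and glycolysis list gave 5 higher and 3 lower calls of 20, NF-kB regulators 4 and 3 of 16, immediate early and handling stress genes 2 and 3 of 20, and the IL-10, IL-22 receptor and STAT3 list 2 and 5 of 13. The shares of these 4 lists lay near or below the 22.1% and 25.1% of all genes, apart from the 5 lower calls of the last, which gave 1 lower call with the length trend removed. Tnip3, an A20-binding inhibitor of NF-kB, had 45.8, 605 and 611 CPM at week 14, against 123, 117 and 86.7 CPM at week 12. Socs3, the feedback inhibitor of STAT3, had 8.35, 137 and 114 CPM at week 14, against 47.1, 20.98 and 22.1 CPM at week 12, and Ptgs2, the inducible cyclooxygenase, had 2.82, 55.04 and 24.6 CPM at week 14, against 4.47, 7.27 and 10.1 CPM at week 12.

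Several measures that bear on tissue and RNA moved with the split. Cytosolic ribosomal protein genes took 3.32, 14.5 and 11.03% of counts at week 14, against 7.45, 6.63 and 4.67% at week 12. All 30 listed had positive fold changes, as had 30 with RLE size factors, 23 with library size only and 16 on log2 TPM. Of these genes, 25 passed higher without W14 replicate 1, beside 22.1% of all genes, and 11 with the length trend removed, beside 19.9%. Rpl5, for example, had 31.2, 329.6 and 270.5 CPM at week 14, against 65.3, 56.4 and 42.9 CPM at week 12. Mitochondrially encoded genes took 8.41, 5.14 and 3.21% of counts at week 14, against 6.798, 7.79 and 8.72% at week 12. The haemoglobin genes Hba-a2 and Hbb-bs had 41.9, 378 and 99.8 and 76.9, 1245 and 288 CPM at week 14, against 48.2, 41.5 and 29.9 and 137, 131 and 77.5 CPM at week 12, and the summed level of 6 blood genes was 151, 1916 and 474 CPM at week 14, against 235, 216 and 139 CPM at week 12. The adipose list had medians of -0.61, 1.86 and -1.87, a sign that differs between W14 replicates 2 and 3, and a summed level of 38.6, 167 and 50.1 CPM at week 14, against 48.2, 57.4 and 35.5 CPM at week 12. The part of blood, adipose tissue and RNA integrity in the values above was not tested.

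Lipocalin was set beside its RNA. The lipocalin value was 2044, 3758 and 4289 ng/g at week 14, against 2574, 444 and 1767 ng/g at week 12, or 3364 ± 1173 at week 14 and 1595 ± 1075 ng/g at week 12 (SD, n = 3 each). The difference of 1769 ng/g had an exact two-sided permutation p of 0.2, and W14 replicate 1 lay below the highest week 12 mouse. Within cage A lipocalin was 2044 ng/g at week 14, against 2574 ng/g at week 12, and within cage E 4289 ng/g at week 14, against 1767 ng/g at week 12. Lcn2, the gene of neutrophil gelatinase-associated lipocalin, had 1.42, 103 and 70.5 CPM at week 14, against 7.96, 3.64 and 5.73 CPM at week 12, a log2 fold change of 3.33 ± 0.98 with an edgeR adjusted p of 0.242. W14 replicate 1 had the lowest Lcn2 of the 6 libraries and the fourth highest lipocalin value.

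**Figure D5:**
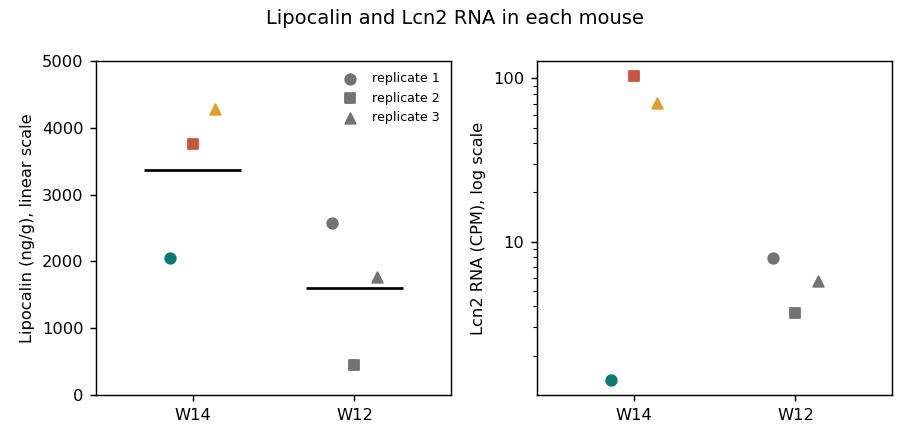
Lipocalin in ng/g (left panel, linear scale, black lines are means of 3 mice) and Lcn2 RNA in CPM (right panel, log scale) in each week 14 mouse (coloured, left) and week 12 mouse (grey, right); circles, squares and triangles are replicates 1, 2 and 3. The lipocalin of W14 replicate 1, 2044 ng/g, lies among the week 12 mice, and its Lcn2 level of 1.42 CPM lies below them.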

How the data were processed

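Polyadenylated RNA from the distal colon of 18 mice was sequenced from both ends. Kallisto, FastQC and the build mm10 are named in the submitters' processing notes, and their versions are not given in the sources used here. The deposited gene table holds expected counts, kallisto estimates summed per gene by the authors and used as whole numbers, for 16321 genes. The deposited gene and transcript tables of TPM give length-scaled shares of transcripts, per the file headers. Library totals ran from 26495521 to 35497101 counts. Limits of 3 counts cover counting error only.

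Counts were scaled by TMM, filtered with filterByExpr (16300 genes) and tested with the quasi-likelihood F-test of edgeR 4.0.16, two-sided, in 1 fit of 6 group means over all 18 libraries, with Benjamini-Hochberg adjustment and a threshold of 0.05. Log2 CPM used a prior count of 2. DESeq2 1.42.0 (447 adjusted p-values not given), limma 3.58.1 on log2(TPM + 1) or log2(TPM + 0.1), voom with group weights, RLE or library-size scaling, other filters, RIN, cage, replicate block and left-out libraries were alternatives. The length offset (lowess, span 0.3, with lengths for 98.6% of genes) was chosen after the data were seen. The edgeR and DESeq2 steps were tested on simulated counts with the same spread for all genes. These counts held no library unlike the rest of its group and no trend with length, so they do not bear on such features. Single values were compared by an exact permutation test in SciPy 1.17.1. Positions are from GENCODE M21, which matched 97.8% of transcripts.

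The comparison, the 49 gene lists and the tests were chosen with earlier results of these data known. Genes are named by rule: those called, filled to 12 of each direction with the smallest p at 2 CPM or more, up to 4 of each list by p with its defining genes, the 6 of smallest p among genes that do not overlap, and Il10, Lcn2, S100a8 and S100a9. The members named as lying on 1 side of week 12 beyond this rule were chosen after their values were seen, and not every gene that the rule covers is given. Gene models without a standard symbol were counted and not named.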

Additional observations from a re-analysis of the deposited data

How the results depend on the processing

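Higher calls numbered 206 in DESeq2 and from 0 to 3613 when single libraries were left out, and lower calls 103 in DESeq2 and from 0 to 4094. The 3613 and 4094 calls came from the fit without W14 replicate 1, and each fit without another library gave 0 of both. With the length trend removed and W14 replicate 1 left out there were 3203 and 2497. Against 1 lower call with all libraries, there were 0 lower calls with limma on log2(TPM + 1) and log2(TPM + 0.1), RLE, library size only, the 6 libraries alone, the 15 Il10KO libraries, voom with group weights, RIN or cage in the model, and without the libraries of RIN under 7, where the lone week 14 library is assumed to vary like the other groups. The cause of each difference was not tested. The median log2 fold change of all genes was 0.04 with TMM, -0.27 with library size only and -0.37 on log2(TPM + 1).

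Replicate numbers are shared by the labels of both ages. Same-numbered libraries had deviations from their group means that correlated at -0.13, 0.31 and -0.30. These cannot tell whether the numbers pair the mice, since the deviations within a group sum to 0. The mice numbered 1 share cage A and those numbered 3 share cage E. With the replicate block, 0 genes were higher and 2 lower, 2610005L07Rik and Pnisr.

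Of the 120 genes given with values, 11 changed sign in at least 1 of the settings in which signs were compared. These were DESeq2, limma on log2(TPM + 1), RLE, the 6 libraries alone, voom, cage, replicate block, length trend removed and single libraries left out. Signs were not compared in the other alternatives, such as the fit without the libraries of RIN under 7. There W14 replicate 1 stands alone for its age, and it lay below each library it was compared with in S100a8, Cxcl5 and Il1b. On log2(TPM + 1) the log2 fold change was -0.0321 for Pmepa1, -0.0204 for Cd3d, -0.52 for Acta2, -0.0815 for Socs3 and -0.59 for Epcam. With cage as a factor it was -0.21 for Gzma, 0.10 for Cdx2 and 0.0281 for Muc2, with RLE 0.000202 for Kit, and with the length trend removed -0.0142 for Epcam. Without single libraries it ran from -0.44 to 1.36 for Vwf, -0.37 to 0.60 for Acta2, -1.56 to 0.28 for Ano1, -1.73 to 0.43 for Kit, -0.0738 to 0.26 for Epcam and -0.63 to 0.50 for Cdx2. DESeq2 called 59 of the 120 that edgeR did not, where it called 1.26% of all genes higher and 0.631% lower. Without W14 replicate 1, 102 passed that did not with it, where 22.1% of all genes passed higher and 25.1% lower. Many of the 120 were named for a small p in these same data, so these counts are no test of them. The lipocalin difference was positive without any 1 mouse (1193 to 2428 ng/g) and on the log10 scale (0.404), with an exact permutation p of 0.2 or 0.4. With 1 mouse left out, this test cannot give a p below 0.2.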
